A study of Mus musculus with 8 samples.

Results

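Tat and 9 genes of glucocorticoid signalling were followed in sorted mouse Paneth cells, epithelial cells of the small intestinal crypt floor that secrete antimicrobial peptides. Members were chosen by symbol: a gene belonged where its Ensembl ID in the count table carried a listed symbol in the GENCODE mouse annotation. They make up 10 of the 55414 gene IDs in the table, and all 10 were among the 13368 IDs that passed the filter on low counts, Tat through its TNF libraries. Tat was picked on its large rise between these same libraries, so its values are given as a description with no test. The other 9 are Nr3c1, which encodes the glucocorticoid receptor, the textbook target genes Tsc22d3, Fkbp5, Per1, Sgk1, Klf9, Pdk4 and Ddit4, and Hsd11b2, which encodes the enzyme that inactivates glucocorticoids.

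The series asks what tumour necrosis factor (TNF, an inflammatory cytokine) does to gene expression in Paneth cells. Wild-type (WT) mice received an injection of PBS, the vehicle, or of TNF, and Paneth cells were sorted from the small intestine 3 hours later. RNA was sequenced in 4 PBS and 4 TNF libraries. The study describes C57BL/6J mice under a fixed light and dark cycle. The age of the mice, the TNF dose and the hour of the day at injection are given neither by the labels nor by the study's methods. No sample received a glucocorticoid and no hormone level accompanied the libraries.

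Glucocorticoids are steroid hormones that enter cells and bind the receptor NR3C1, which is held in the cytoplasm by chaperones until the hormone arrives. The bound receptor moves to the nucleus and sits as a dimer on a palindromic DNA element, from which it raises genes such as Tsc22d3 and Fkbp5, and it also restrains genes driven by NF-kB and AP-1. Tat encodes tyrosine aminotransferase, the enzyme that opens tyrosine breakdown, and is the classic glucocorticoid-induced gene of the liver. TNF provokes release of glucocorticoids from the adrenal gland, and the crypt epithelium can make the hormone itself.

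The palindromic element was searched around each member because it is the sequence by which the receptor is known to act. The search took AGAACA, any 3 bases, then TGTTCT, which reads the same on both strands, from 10 kb before to 1 kb after the start of the canonical transcript, in GRCm39. Of 21760 windows of protein-coding genes searched in the same way, 0.170% held an exact match, 7.47% a match with at most 1 mismatch and 67.2% a match with at most 2 mismatches. A selection of matches, from Sgk1, Per1, Tat, Fkbp5 and Tsc22d3, is printed below, each in the direction of its gene. The selection does not follow the size of the change after TNF, and the matches of Klf9, Pdk4, Ddit4 and Hsd11b2 are not printed. Capitals mark the 12 letters compared, and lower case marks the spacer and up to 15 bases on each side.
Sgk1 (chr10:21869585-21869629, + strand, 958 bases before the start, 0 mismatches): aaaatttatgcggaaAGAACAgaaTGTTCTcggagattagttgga
Per1 (chr11:68987887-68987931, + strand, 1359 bases before the start, 1 mismatch): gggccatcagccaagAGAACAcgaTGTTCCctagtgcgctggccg
Per1 (chr11:68990227-68990267, + strand, 981 bases after the start, 1 mismatch): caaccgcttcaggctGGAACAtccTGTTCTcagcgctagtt
Tat (chr8:110714571-110714615, + strand, 2470 bases before the start, 2 mismatches): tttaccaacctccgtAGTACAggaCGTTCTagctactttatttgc
Fkbp5 (chr17:28707295-28707339, - strand, 2165 bases before the start, 2 mismatches): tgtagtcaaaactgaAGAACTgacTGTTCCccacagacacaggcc
Tsc22d3 (chrX:139504284-139504328, - strand, 4751 bases before the start, 2 mismatches): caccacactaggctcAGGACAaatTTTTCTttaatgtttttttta

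Sgk1 was the member with an exact match, and Per1 had 2 matches with 1 mismatch. The printed elements of Sgk1, Per1 and Fkbp5 lie in introns of these genes, those before the start because longer annotated transcripts begin further upstream. The printed Tat element lies outside Tat, in an intron of an unnamed gene, and the Tsc22d3 element lies between annotated genes. Tat had 2 matches and Tsc22d3, Fkbp5 and Klf9 had 1 each, all with 2 mismatches, a closeness that most windows reach. Ddit4 had 2, Pdk4 3 and Hsd11b2 3 matches with 2 mismatches, and Nr3c1 had 0 in its window. In the promoter, taken as 250 bases before to 50 bases after the start, CACGTG was present in Fkbp5 and Per1, against 7.81% of 21770 promoters. TATAAA was present in Per1, Sgk1 and Hsd11b2, against 13.2%, and the Hsd11b2 promoter also held an NF-kB consensus, against 4.87%, and TTCNNNGAA, against 8.81%. None of the 6 promoter motifs searched (the NF-kB consensus, TTCNNNGAA, TTGCNNAA and TATAAA, with CACGTG and the single arm AGAACA, on both strands) was in the Tat window. These matches describe letters only, and no binding was measured.

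The 8 libraries held 23824717 to 32576077 counts. Levels are given as normalized CPM, the count relative to the library total after scaling by TMM, which aligns libraries on the bulk of their genes. The library TNF 4 stood apart: its scaling factor was 0.448 against 0.995 to 1.36 in the others, and 51.4% of its counts fell on alpha-defensin (Defa) genes against 32.0% to 37.9%. Values that it moves most are also given without it. The Paneth cell label fitted the markers, since summed normalized CPM of 10 Paneth markers was 317797 to 466553 in PBS libraries. In TNF libraries it was 392838 to 460923 in TNF 1 to 3 and 1235100 in TNF 4. Under library size alone the median log2 fold change of all genes moved by -0.40, so that members are also given on that scale where it changes a call. The series describes the libraries as biological replicates and the study describes its Paneth cell samples as taken from individual mice, although no label names the animal. A supplementary legend of the study also speaks of sorted cells that were pooled. Whether each of these libraries stems from a single mouse is not stated. The p-values measure the spread between these libraries.

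Tat was close to undetected in PBS libraries and abundant in all TNF libraries. The gene lies at chr8:110717063-110726435 on the + strand. Its counts were 3, 5, 17 and 16 in PBS 1 to 4, a sum of 41, and 2710, 3406, 3834 and 681 in TNF 1 to 4, a sum of 10631. As normalized CPM this was 0.0804, 0.186, 0.670 and 0.362 in PBS and 96.2, 118, 135 and 58.5 in TNF. Every TNF library was far above every PBS library, and TNF 4 was the lowest of its group. The mean went from 0.325 ± 0.258 to 102 ± 32.8 normalized CPM (SD, n = 4 in each group), a fold of 314 and a log2 fold change of 8.34, which was the rank 10 rise among the 13368 genes. By mean level Tat held rank 13161 of these genes in PBS and rank 731 in TNF. The log2 fold change lay between 7.97 and 8.84 in every alternative tried and was 8.55 without TNF 4.

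**Figure D1:**
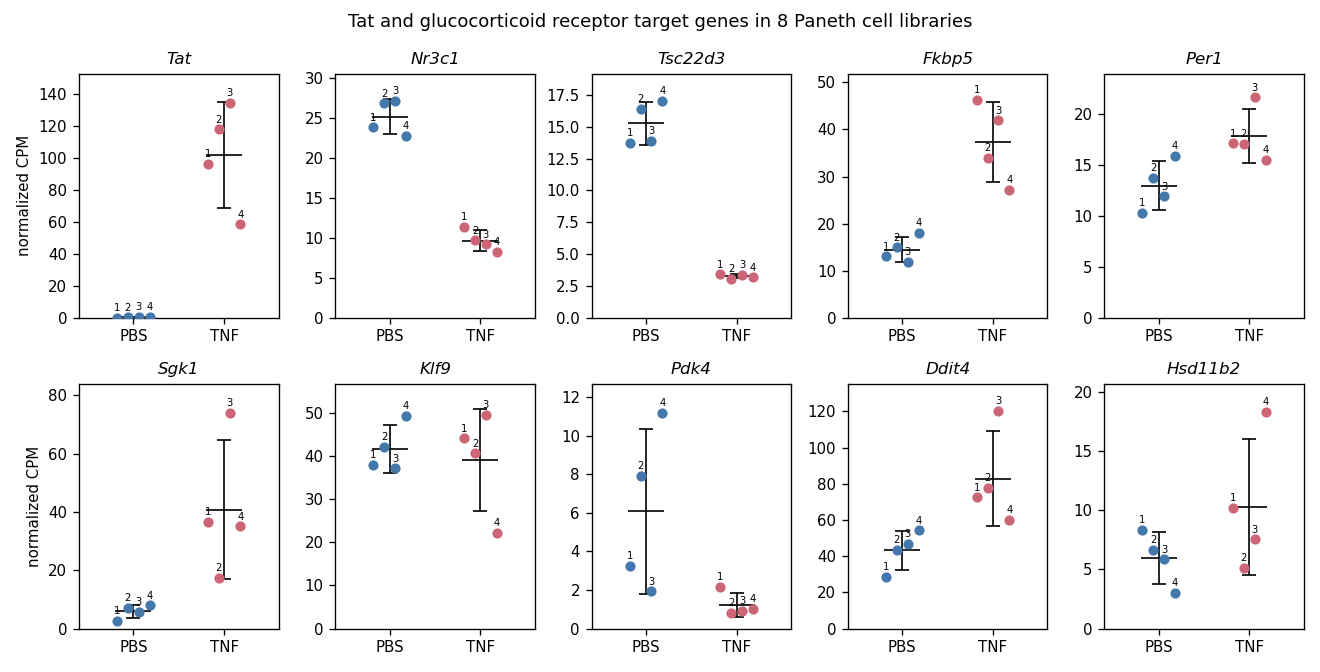
Normalized CPM of each of the 10 genes (vertical axis from 0, a scale of its own in each panel) in 4 PBS (blue) and 4 TNF (red) libraries, with the library number above each point and bars for the mean and SD. Tat runs from at most 0.670 in PBS to 58.5 or more in TNF, Nr3c1 and Tsc22d3 are lower in every TNF library, and Klf9 overlaps between the groups.

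Nr3c1, the receptor gene itself, was lower in every TNF library. Its normalized CPM was 23.8, 26.8, 27.1 and 22.7 in PBS and 11.4, 9.69, 9.16 and 8.24 in TNF, and the groups did not overlap. The mean fell from 25.1 ± 2.19 to 9.61 ± 1.31 (SD, n = 4 each), a log2 fold change of -1.38 with a standard error (SE) of 0.13 and an adjusted p of 1.4e-05 by the edgeR quasi-likelihood test over all genes. Across all genes 43.0% were called at an adjusted p under 0.05, 23.4% as higher and 19.6% as lower, and 42.1% had groups that did not overlap. In these bulk libraries fewer cells of a type and less RNA per cell cannot be told apart. Nr3c2, the mineralocorticoid receptor that also binds glucocorticoids, had 16.0 ± 1.92 normalized CPM in PBS and 21.5 ± 6.11 in TNF and was not called (adjusted p = 0.0877). It was named for its role, after its values were seen.

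Hsd11b2 guards cells against glucocorticoids by turning them into inactive forms. Its normalized CPM was 8.36, 6.69, 5.87 and 3.03 in PBS 1 to 4 and 10.2, 5.12, 7.54 and 18.4 in TNF 1 to 4 (chr8:106245369-106250620). The groups overlapped, and the highest value was in TNF 4 and the lowest in PBS 4. The log2 fold change of 0.76 (SE 0.39, 95% interval -0.10 to 1.61) was not called, with an adjusted p of 0.14 by edgeR, and it was 0.37 without TNF 4. The partner enzyme that regenerates the hormone, Hsd11b1, had 2 counts in all 8 libraries together.

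Tsc22d3 (GILZ) and Fkbp5 are among the most general targets of the receptor, and they moved in opposite directions. Tsc22d3, which encodes an anti-inflammatory leucine zipper protein (chrX:139440091-139501408), had 13.7, 16.4, 13.9 and 17.1 normalized CPM in PBS and 3.41, 3.08, 3.37 and 3.18 in TNF. All TNF values lay far below the PBS values and close to each other. The mean was 4.69-fold lower, which is -2.23 on the log2 scale (SE 0.13, adjusted p = 6.68e-07). Fkbp5 encodes an immunophilin that lowers the receptor's affinity for hormone (chr17:28618058-28737521). It had 13.1, 14.98, 11.9 and 18.1 normalized CPM in PBS and 46.3, 34.01, 42.0 and 27.2 in TNF, with no overlap and TNF 4 again lowest. The rise was 2.58-fold, or 1.37 on the log2 scale (SE 0.19, adjusted p = 0.000185). Under library size alone Fkbp5 lost its call, with 1.03 and an adjusted p of 0.0678, and without TNF 4 its log2 fold change was 1.5.

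A ratio of counts within a library does not depend on scaling. Fkbp5 over Tsc22d3 was 0.951, 0.914, 0.856 and 1.06 in PBS and 13.6, 11.04, 12.5 and 8.57 in TNF, so that near-equal counts became a wide excess of Fkbp5 in each TNF library. Per1 over Tsc22d3 was 0.752 to 0.934 in PBS and 4.89 to 6.43 in TNF. Sgk1 over Pdk4 was 0.713 to 3.02 in PBS and 16.9 to 81.1 in TNF. Within each pair the members thus changed unequally under any scaling.

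Sgk1 encodes a kinase that raises sodium uptake in epithelia under corticosteroids. It had 2.65, 7.10, 5.83 and 7.99 normalized CPM in PBS and 36.7, 17.5, 74.0 and 35.0 in TNF (chr10:21758083-21875802). The groups did not overlap, while the TNF libraries spread widely, with TNF 3 highest and TNF 2 lowest. The mean went from 5.89 ± 2.33 to 40.8 ± 23.8 (SD, n = 4 each). On the log2 scale the change was 2.79 (SE 0.44, adjusted p = 0.000487). It kept its call under every alternative, with log2 fold changes from 2.34 to 3.02.

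Ddit4 (REDD1), an inhibitor of mTOR signalling that stress and glucocorticoids induce, rose less. It had 28.7, 43.5, 46.7 and 54.3 normalized CPM in PBS and 72.5, 78.0, 120.4 and 59.9 in TNF (chr10:59785491-59788492). The groups did not overlap, but PBS 4 and TNF 4 were close. Its change of 0.93 on the log2 scale (SE 0.24) was called, with an adjusted p of 0.00874, and under library size alone 0.61 with an adjusted p of 0.281.

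Per1, a clock gene whose transcription the receptor drives directly, had 10.3, 13.7, 11.9 and 15.9 normalized CPM in PBS and 17.1, 17.1, 21.6 and 15.5 in TNF (chr11:68986035-69002300). The groups overlapped, since PBS 4 exceeded TNF 4. A log2 fold change of 0.46 (SE 0.16) passed the threshold narrowly, with an adjusted p of 0.0365 by edgeR. The call was lost without PBS 1, 2 or 3 or TNF 1, 2 or 3 (0.34, 0.49, 0.42, 0.46, 0.46 and 0.36, adjusted p = 0.0607 to 0.164) and under library size alone (0.10, adjusted p = 0.864). With the replicate number as a block it was 0.47 with an adjusted p of 0.0703.

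Klf9, a transcription factor that the receptor induces in many tissues, was not called. It had 38.0, 42.3, 37.2 and 49.5 normalized CPM in PBS and 44.2, 40.7, 49.6 and 22.2 in TNF (chr19:23118187-23148497). TNF 1 to 3 lay within the PBS range or next to it and TNF 4 lay below every other library. Its log2 fold change was -0.09 (SE 0.21, 95% interval -0.56 to 0.38, adjusted p = 0.771), and without TNF 4 it was 0.12 (adjusted p = 0.435).

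Pdk4, the kinase that shuts pyruvate dehydrogenase in fasting and a target of glucocorticoids and of PPAR factors, fell. It had 3.24, 7.92, 1.93 and 11.2 normalized CPM in PBS and 2.16, 0.830, 0.912 and 1.03 in TNF (chr6:5483097-5496339). PBS 3 lay below TNF 1, so the groups overlapped, and PBS 2 and 4 were well above the rest. The change was -2.28 on the log2 scale (SE 0.54) with an adjusted p of 0.00608, and it lay between -2.76 and -1.83 in every alternative.

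Of the 9 members other than Tat, 7 were called, 4 higher (Fkbp5, Per1, Sgk1 and Ddit4) and 3 lower (Nr3c1, Tsc22d3 and Pdk4), where 43.0% of all genes tested were called. Under library size alone 4 were called, 1 higher and 3 lower, where 3182 of the 13368 genes tested were called. The 9 had a median log2 fold change of 0.46, against 0.03 for all genes tested, and 5 of the 9 had groups that did not overlap, as 42.1% of all genes tested did. The split of calls over all genes also moved with scaling: 54.3% of called genes were higher in TNF with TMM and 23.8% of 3182 under library size alone.

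**Figure D2:**
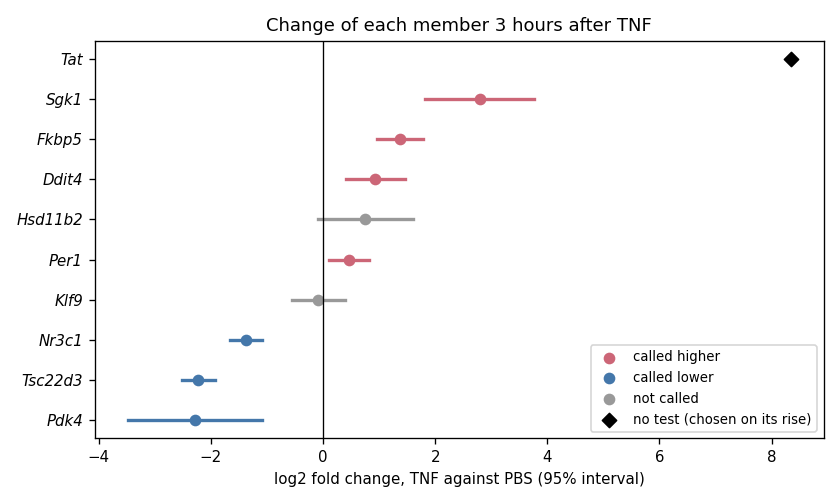
Log2 fold change of TNF against PBS (horizontal axis) for each member, with 95% intervals from edgeR, red where called higher, blue where called lower and grey where not called. Tat, the diamond at 8.34, has no interval because it was chosen on this rise, and the tested members run from Pdk4 at -2.28 to Sgk1 at 2.79.

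Levels of different genes were compared per kilobase of merged exons. In PBS the order of mean normalized CPM per kilobase was Ddit4 at 16.0, Klf9 at 5.08, Hsd11b2 at 3.22, Nr3c1 at 3.19, Tsc22d3 at 2.47, Per1 at 1.69, Pdk4 at 1.6, Fkbp5 at 1.31, Sgk1 at 0.980 and Tat at 0.135. The libraries of neighbours in this order overlapped between Hsd11b2 and Nr3c1 and along the run from Per1 through Pdk4 and Fkbp5 to Sgk1, and Tat stood below all others. Without PBS 3 the PBS level of Tat was 0.0869. In TNF the order was Tat at 42.2, Ddit4 at 30.5, Sgk1 at 6.78, Hsd11b2 at 5.55, Klf9 at 4.77, Fkbp5 at 3.38, Per1 at 2.33, Nr3c1 at 1.22, Tsc22d3 at 0.526 and Pdk4 at 0.325. Without TNF 4 the TNF means were 4.11 for Hsd11b2 and 5.46 for Klf9, which turned the order of this pair, as it was on plain CPM, at 4.39 and 4.63. The other members kept their order without TNF 4. With all 4 libraries Tat and Ddit4 overlapped, as did neighbours from Sgk1 through Per1 and the pair of Tsc22d3 and Pdk4. Tat thus went from the bottom of the order to the top beside Ddit4, and Tsc22d3 went from the middle to the bottom beside Pdk4.

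**Figure D3:**
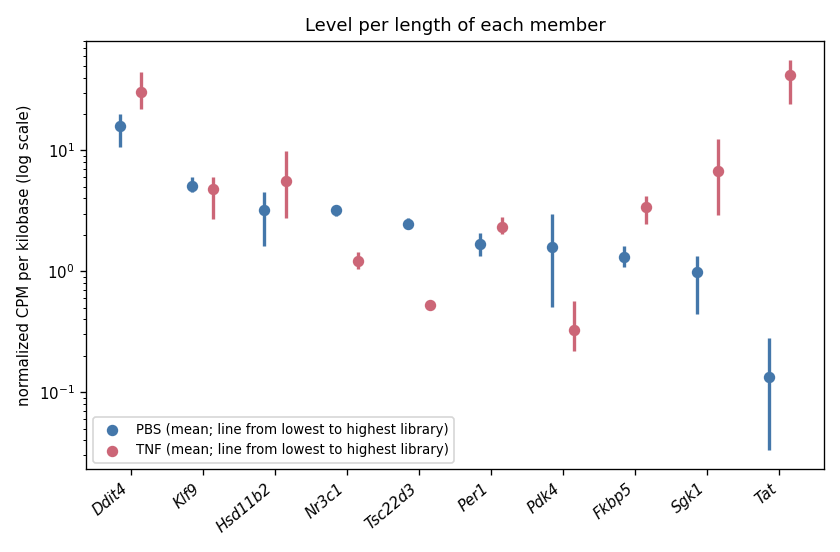
Normalized CPM per kilobase of merged exons (vertical log axis) for each member in the order of its PBS mean, with points for the mean of 4 libraries and lines from the lowest to the highest library in PBS (blue) and TNF (red). Tat moves from 0.135 to 42.2, whereas Nr3c1, Tsc22d3 and Pdk4 are the members whose TNF mean lies well below their PBS mean.

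The members also varied within the groups, and the libraries took different places. PBS 4 was the highest PBS library for 7 of the 10 members (Tsc22d3, Fkbp5, Per1, Sgk1, Klf9, Pdk4 and Ddit4), and 37.0% of all tested genes were highest there. On plain CPM, which uses library size alone, this was 8 of 10 members and 59.5% of all genes. TNF 3 was the highest TNF library for 5 members (Tat, Per1, Sgk1, Klf9 and Ddit4), against 26.2% of all genes, and for 5 on plain CPM, against 35.0%. TNF 4 was the lowest for 6 members (Tat, Nr3c1, Fkbp5, Per1, Klf9 and Ddit4), against 38.2%, and for 9 on plain CPM, against 86.9%. On both scales Tat and Sgk1 were highest in TNF 3. Sgk1 was lowest in TNF 2 on normalized CPM and in TNF 4 on plain CPM, whereas Tat was lowest in TNF 4 on both.

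Of 17 listed genes for chaperones, coregulators, hormone export and hormone handling, 15 were tested, 4 were called higher and 1 lower, with a median log2 fold change of 0.07, where 43.0% of all genes tested were called. Under library size alone 2 of the 15 were called, where 3182 of the 13368 genes tested were called. H6pd, which supplies the cofactor for hormone regeneration, rose by 2.01 on the log2 scale (SE 0.15, adjusted p = 3.53e-06). The chaperone partner Ptges3 (p23) rose by 0.77 (SE 0.11) and the efflux pump Abcb1a, which exports steroids, by 0.89 (SE 0.18), while the immunophilin Fkbp4, which helps the receptor towards the nucleus, fell by 0.60 (SE 0.14). The remaining call, Hsp90aa1 at 0.44, was named after its values were seen. Among 10 genes of local steroid synthesis 2 were tested: Nr5a2, the nuclear receptor that drives steroid synthesis in the crypts, fell by 0.97 (SE 0.17, adjusted p = 0.00104) and Star was at -0.10 and not called. Hsd3b1, Cyp21a1, Cyp11b1 and Cyp11b2 had 0 counts in every library, and Cyp11a1 had 7 in all, so that these enzymes were at or near 0 at this depth.

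Other glucocorticoid-induced genes were read in a pair of lists, and the difference between the lists was not tested. The second holds genes listed as also induced by inflammatory signals, and the first was not defined by a lack of such induction. Of 20 genes in the first list 17 were tested, 3 were called higher and 4 lower, where 43.0% of all genes tested were called. The median log2 fold change was -0.05. Glul, glutamine synthetase, rose by 1.48 (SE 0.14, adjusted p = 1.57e-05), Lpin1 by 1.61 (SE 0.24) and Errfi1, a brake on EGF receptor signalling, by 1.16 (SE 0.27). Mertk, an engulfment receptor, fell by 3.20 (SE 0.34), and Arrdc2, Cry2 and Foxo3, named after their values were seen, were at -1.12, -0.68 and -0.35. Of 12 genes that NF-kB or acute-phase signals also induce 10 were tested and all 10 were called higher, where 23.4% of all genes tested were, with a median of 3.36. Among them were Nfkbia at 3.86 (SE 0.15), Cebpd at 3.77 (SE 0.15), Tnfaip3 at 3.96 (SE 0.19) and Zfp36 at 3.69 (SE 0.19), which encode the NF-kB inhibitor, a C/EBP factor, a brake on NF-kB and an mRNA decay factor. In every alternative 10 genes of this list were called.

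Enzymes that act with or beside Tat were read in a pair of lists. Of 7 genes of tyrosine breakdown, 5 were tested and 1 was called, Got1 at 0.50 (SE 0.14, adjusted p = 0.0143), and 0 were called without PBS 4, without TNF 1 or without TNF 2. Without TNF 4, where 6922 genes were called in all, 3 genes of this list were called, 1 higher and 2 lower. Hpd, which follows Tat in the pathway and was named for that place, had 171 ± 10.3 normalized CPM in PBS and 144 ± 13.9 in TNF and was not called. Among 12 other amino acid and glucose enzymes of liver and kidney known to respond to glucocorticoids, 9 were tested. Of these, 2 were called higher and 2 lower, with a median of -0.07, where 43.0% of all genes tested were called. Without TNF 4, 5 of these 9 were called, beside the 6922 genes called in all. Under library size alone, where 3182 genes were called in all, 0 of the 9 were higher and 3 lower. Ass1 and Asl, neighbouring steps of arginine synthesis, rose by 0.97 (SE 0.13) and 0.55 (SE 0.14). Cps1, the entry of the urea cycle, fell by 0.85 (SE 0.18) and the alanine transaminase Gpt2 fell by 1.87 (SE 0.19). Pck1, the hepatic glucocorticoid target of gluconeogenesis, had 16.7 ± 2.82 and 18 ± 4.94 normalized CPM and was not called.

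Relatives and partners of single members were read beside the 43.0% of all genes tested that were called, 23.4% higher and 19.6% lower. Of 17 clock genes 15 were tested, 3 were called higher and 5 lower, with a median of -0.22. Cry1 and Nfil3, which repress clock output, rose by 1.81 (SE 0.15) and 1.90 (SE 0.16), and the output factors Tef and Dbp fell by 1.57 (SE 0.19) and 2.53 (SE 0.41), while the Per1 paralog Per2 was at -0.20 and not called. Of 11 PPAR and fasting targets, all tested, 0 were higher and 8 were lower, with a median of -1.15. Cpt1a, which controls the entry of fatty acids into mitochondria, fell by 1.59 (SE 0.16), the kinase Pdk2 by 1.16 (SE 0.12) and the lipid droplet gene Plin2 by 1.15 (SE 0.15), beside the fall of Pdk4. Of 16 relatives of Tsc22d3, Fkbp5, Klf9 and other members 13 were tested, 4 were higher and 4 lower, with a median of -0.20. Under library size alone, where 3182 genes were called in all, 1 relative was higher and 3 lower. Klf6, Klf5 and Klf3 rose by 1.92 (SE 0.19), 1.15 (SE 0.12) and 1.04 (SE 0.20), Klf4 fell by 1.04 (SE 0.16), and Klf9 itself was not called.

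**Figure D4:**
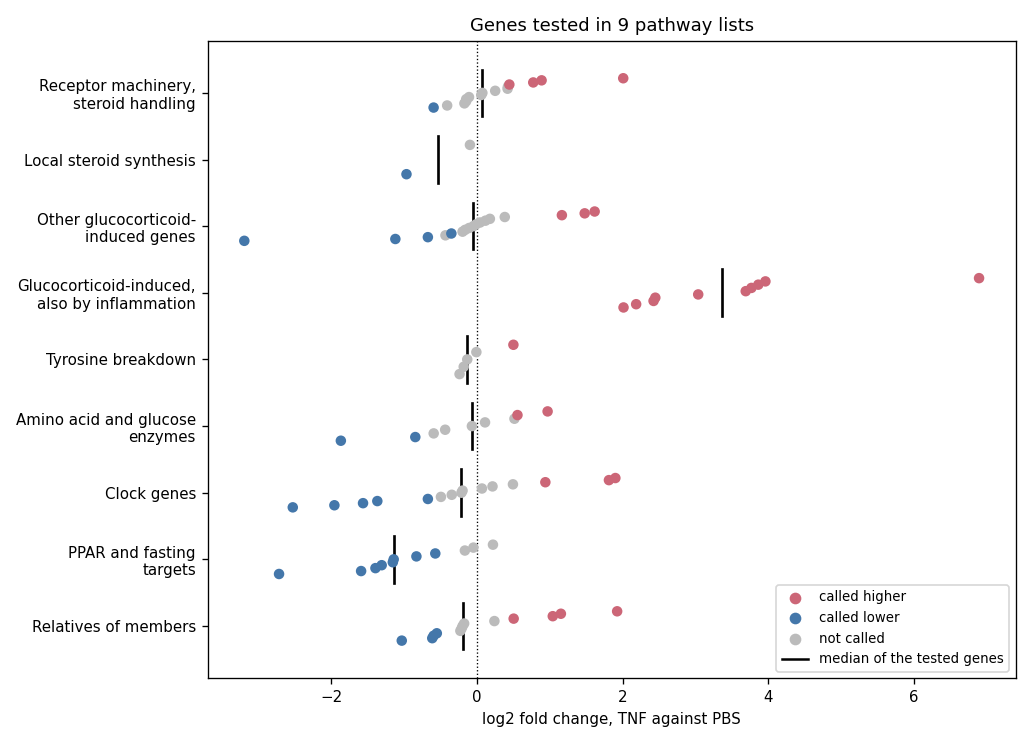
Log2 fold change of TNF against PBS (horizontal axis) for every tested gene of 9 lists (rows), red where called higher, blue where called lower, grey where not called, with a black line at the median of each list. The 10 tested genes that inflammatory signals also induce are all to the right with a median of 3.36, the PPAR and fasting targets have a median of -1.15, local steroid synthesis has 2 genes below 0, and the other lists lie on both sides of 0.

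Among 8489 genes with a symbol and a mean of at least 5 normalized CPM, the profile over the 8 libraries was most like that of Tat for Tbc1d14 (Pearson r = 0.997), Mat2a (0.996), Cish (0.996), Ube2g2 (0.996) and Shf (0.995). The likeness was taken on log2 normalized CPM and 31 genes exceeded 0.99. All 8 points fall into a PBS and a TNF cluster, so r mostly reflects that gap. Mat2a, which makes S-adenosylmethionine, had 41.8 ± 4.86 normalized CPM in PBS and 177 ± 22.2 in TNF, and Cish, a cytokine-induced inhibitor of JAK-STAT signalling, had 2.84 ± 0.620 and 30.2 ± 5.79. Around Tat, 19 genes start within 200 kb of its start, of which 13 are in the table and 5 were tested. Of these 5, 3 were called higher and 0 lower, where 43.0% of all genes tested were called and 23.4% were called higher. Chst4, a sulfotransferase gene 49.3 kb after Tat, rose by 2.49 on the log2 scale (SE 0.27, adjusted p = 3.4e-05), Marveld3, 28.2 kb before it, by 0.97 (SE 0.13) and Zfp612 by 0.77 (SE 0.26). Gm17344 and Phlpp2 were not called.

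Because Tat is best known from hepatocytes, liver markers were read beside it. Alb, which encodes albumin, had 0.214, 0.186, 0.0394 and 0.0226 normalized CPM in PBS and 0, 18.3, 0 and 0.429 in TNF. Alb stood out in TNF 2. The same library held Serpina3k at 0.692, Serpina1a at 0.727 and Tdo2 at 0.277, and these 3 genes were at 0 in TNF 1, TNF 3 and TNF 4. Tat was at 96.2 and 135 normalized CPM in TNF 1 and TNF 3, where Alb and these 3 genes were at 0. Other hepatocyte markers were present there. Fga and Fgb were at their highest in TNF 3, at 5.72 and 5.75, and Ahsg, Hpx, Ttr, Apoh, Serpina1b and Apob were above 0 in both libraries. The part of liver RNA in the level of Tat was not tested. Of 14 hepatocyte markers 8 were tested, Fga and Fgb were higher (4.06 and 4.21) and Cyp2e1 was lower (-2.43), where 43.0% of all genes tested were called. Without PBS 4, where 5586 genes were called in all, 5 markers were called. Without TNF 4, where 6922 genes were called in all, 6 markers were. The summed level was 32.1 to 41.8 normalized CPM in PBS and 30.7 to 61.3 in TNF. These markers, like those that follow, were named after their values were seen.

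**Figure D5:**
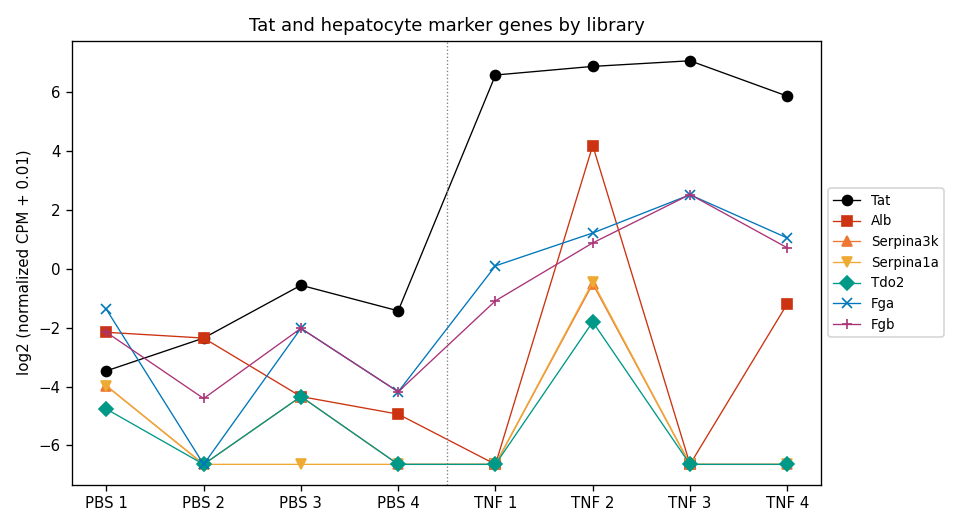
Log2 of normalized CPM plus 0.01 (vertical axis) of Tat and 6 hepatocyte marker genes in each of the 8 libraries (horizontal axis). Tat is high in all 4 TNF libraries, Alb is high in TNF 2 alone and lies at the floor in TNF 1 and TNF 3, and Fga and Fgb are higher in the TNF libraries than in PBS.

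Markers of other cells were read beside the 43.0% of all genes tested that were called, 23.4% higher and 19.6% lower. Their part in the members' values was not tested. Over all genes, 5747 were called with TMM and all libraries, 6922 without TNF 4 and 3182 under library size alone. Stem cell markers had 4 of 5 called lower (Lgr5, Axin2, Ascl2 and Smoc2), with a summed level of 1454 to 2351 normalized CPM in PBS and 1312 to 1855 in TNF. Enterocyte markers had 2 of 8 lower, Apoa4 among them, or 4 without TNF 4, at 96.9 to 135 in PBS and 47.7 to 101 in TNF, or 47.7 to 55.8 without TNF 4. Enteroendocrine markers had 3 of 4 tested higher (Chgb, Chga and Gcg), at 10.3 to 13.2 and 30.3 to 61.0, or 30.3 to 39.9 without TNF 4. Goblet markers had 1 of 7 higher (Muc2) and 2 lower (Fcgbp and Clca1), 1 higher and 3 lower without TNF 4, and 0 higher and 2 lower under library size alone. They summed to 7155 to 11182 and 11236 to 25434, or 11236 to 12022 without TNF 4. Clca1 was at 554 in PBS 1 and at 44.0, 43.0 and 41.1 in PBS 2 to 4. Goblet calls were 1 higher and 1 lower with DESeq2, limma-voom or the replicate block. The same held without TNF 1, TNF 2 or TNF 3. Of 9 immune markers 3 were tested and Cd52 was higher, with 2 higher without TNF 1, TNF 3 or TNF 4, at 54.3 to 74.4 and 62.0 to 116, with Cd3e, Cd79a and S100a9 at 0 counts in all libraries. Of 7 stromal markers Vim alone was tested and was higher, at 0.276 to 0.452 and 1.23 to 1.76, with Col3a1 at 0. Among the Paneth markers Pla2g2a and Nupr1 were higher and Fzd5 lower.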

How the data were processed

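Paneth cells were sorted from the small intestine of WT mice 3 hours after PBS or TNF, with RNA from the Aurum Total RNA Mini kit and sequencing libraries from the TruSeq Stranded mRNA kit. The authors deposited raw counts for 55414 Ensembl gene IDs in 8 libraries, with no normalization. The submitters' processing notes name FastQC 0.12, STAR 2.7.10a, DESeq2 and the build mm39. The study names GENCODE M30 for its own pooled realignment. Which counter, annotation, strand setting and handling of multi-mapped reads made this count table is stated by neither the labels nor the methods read here, so genes that overlap cannot be told apart by strand, although genes in the table that overlap a member held at most 4 counts. No molecular identifiers are described, and intervals cover the model's error only.

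Symbols, positions and exon lengths were taken from GENCODE M39 (GRCm39), which matched 54749 IDs, and sequences were read from the same genome. Genes were tested on the counts with edgeR 4.0.16 in R 4.3.3 (quasi-likelihood F test, TMM factors, filterByExpr, Benjamini-Hochberg adjustment over 13368 genes, called at an adjusted p under 0.05), with no covariate. Normalized CPM were computed with TMM. Scripts were checked on simulated counts. The members and the 9 pathway and 8 marker lists were chosen with earlier results of these data known, so no test was run over a list. Named genes were all members, up to 4 called genes with the smallest p of each pathway list, the 5 genes most like Tat, and tested genes within 200 kb of it. Most others are marked as named after their values were seen. Hsd11b1, Star, Cyp11a1, Hsd3b1, Cyp21a1, Cyp11b1, Cyp11b2, Hpd, Pck1 and Per2 were also named outside this rule and carry no such mark. A few genes of the lists are counted but not reported by name here. Values without TNF 4 for the summed marker levels were added after seeing the data. Alternatives were RLE scaling, library size alone, TMM without Defa genes, other filters, DESeq2 1.42.0, limma-voom (limma 3.58.1), a replicate block, a stricter threshold and leaving out each library. No 2 libraries were duplicates.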

Additional observations from a re-analysis of the deposited data

Results flagged for a closer look

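Pdk4 in TNF 1 stood apart from its group. At 2.16 normalized CPM it was the highest of the 4 TNF libraries, beside 0.830 in TNF 2, 0.912 in TNF 3 and 1.03 in TNF 4, and its gap to the nearest library exceeded Dixon's critical value for 4 samples, with a ratio of 0.85. Each of the 10 members was examined in each group, 20 groups in all, and chance marks about 1 in 20. The log2 fold change of Pdk4 was -2.76 without TNF 1 and -2.28 with it.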

How the results depend on the processing

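The directions of Tat, Nr3c1, Tsc22d3, Sgk1 and Pdk4 held in every alternative, as did the calls of the last 4. Library size alone had the widest effect: 3182 genes and 4 members were called, the log2 fold changes were 1.03 for Fkbp5, 0.10 for Per1 and 0.61 for Ddit4, none of them called, and the counts of called genes were 2 for receptor machinery, 0 for tyrosine breakdown, 4 for relatives of members, 0 for Paneth markers and 4 for enterocyte markers. For Per1 the call was also lost with no filter beyond 1 count (0.43), at an adjusted p under 0.01 (0.46), and in all but 2 of the fits that left out a library. Over all 8 of those fits it ran from 0.34 to 0.55, and it stayed called without PBS 4 (0.55) and without TNF 4 (0.53). Klf9 ranged from -0.21 to 0.12 when a library was left out and turned positive without TNF 4.

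Correlations of deviations between libraries of the same number ran from -0.14 to 0.0663, not every library correlated best with that of its own number, and the numbers do not pair the samples. With the replicate number as a block 5087 genes were called, Per1 was at 0.47 and lost its call, and no other call of a member changed.

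At an adjusted p under 0.01, 4 other glucocorticoid-induced, 0 tyrosine breakdown and 0 immune marker genes were called. DESeq2 called 2 tyrosine breakdown genes and limma-voom 4 enterocyte markers. With no filter beyond 1 count the calls were 5 hepatocyte, 4 enterocyte, 2 immune and 2 stromal markers, and with at least 1 CPM in at least 4 libraries 1, 1, 0 and 0. Leaving out a library gave 4756 to 6922 genes called, and in the lists 0 to 3 for tyrosine breakdown, 3 to 6 for hepatocytes, 2 to 4 for enterocytes and 1 to 2 for immune cells. On plain CPM per kilobase the PBS levels were 3.74 for Nr3c1, 2.92 for Tsc22d3, 1.57 for Fkbp5, 2.01 for Per1 and 6.05 for Klf9, and the TNF level of Tsc22d3 was 0.478. Depth limits what can be read of Tat in PBS, where 3 to 17 counts stand behind each value. The cause of these changes was not tested.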

Other observations

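Zbtb16, which is among the most strongly glucocorticoid-induced genes of many tissues, was chosen here after its values were seen. It had 0.134, 0.0744, 0.158 and 2.13 normalized CPM in PBS 1 to 4 and 0.887, 0.415, 0.807 and 1.63 in TNF 1 to 4. PBS 4 was the highest of all 8 libraries and the other 3 PBS libraries lay below every TNF library. The log2 fold change of 0.38 was not called (adjusted p = 0.754 by edgeR). PBS 4 was also the highest PBS library for 7 of the 10 members and for 9 of the 17 tested genes in the first list of other glucocorticoid-induced genes. Of all tested genes 37.0% were highest in that library. Lcn2, an acute-phase gene also chosen after its values were seen, had the largest log2 fold change of the lists, 6.89. It was picked on this rise, so no test is given for it. Its normalized CPM was 0.0226 to 0.107 in PBS and 3.35 to 10.7 in TNF.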
